A study of Homo sapiens with 24 samples.

Results

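The 10 genes described here are keratins, cadherins and markers of the epithelial and the mesenchymal state: KRT8, KRT7, KRT81, KRT18, KRT19, CDH1, CDH2, EPCAM, VIM and ZEB1. They were taken by gene symbol from a deposited table of 26450 genes, which holds all 10. RNA was sequenced from 24 libraries of 2 human lines, PANC-1, a line from a carcinoma of the pancreatic duct, and HEK293T, a transformed line from embryonic kidney. Each line was grown flat (2D), as aggregates in AggreWell microwells, or in a dual-axis rotating capillary container (DRCC) at a speed of 1 rpm or of 30 rpm, with 3 libraries in each of the 8 groups. The labels call both lines epithelial and name no allele, drug or time point. Markers bore this label out in part: KRT8 and KRT18 were abundant in PANC-1 and present in HEK293T, but CDH1 and EPCAM stayed under 3 FPKM in all 24 libraries. Nothing in them says that the 3 libraries of a group came from separate cultures, so every p-value below measures only the spread between these libraries. In bulk RNA of this kind, fewer cells with a transcript and less transcript per cell cannot be told apart.

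Keratins form the intermediate filaments of epithelial cells as pairs of one type I and one type II chain, and the pair of KRT18 (type I) and KRT8 (type II) is the basic filament of simple epithelia such as pancreatic duct and kidney tubule. E-cadherin (CDH1) joins epithelial cells at adherens junctions, while N-cadherin (CDH2) and the filament protein vimentin (VIM) are classical marks of mesenchymal cells. ZEB1 is a transcription factor that represses CDH1 and other epithelial genes by binding E-box sequences, and it is one of the drivers of epithelial-mesenchymal transition (EMT).

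RefSeq promoter windows on build GRCh38.p14, each of 300 bases around an annotated gene start, were matched for 4 of the 10 genes: KRT8, CDH2, VIM and ZEB1. They are shown for the E-box core that ZEB1 is known to bind. The 6 letters searched were CAGGTG, on both strands, and they are 1 form of the wider E-box. This core was present in 20.6% of all 35116 windows of this length. A ZEB1 window at chr10:31318966-31319265 (plus strand) holds 3 matches, printed in capitals, the first of them on the other strand. Their first bases lie at -242, -85 and 34 relative to the start. The KRT8 window at chr12:52926420-52926719 (minus strand) and the VIM window at chr10:17227991-17228290 (plus strand) hold none, so they carry no capitals.
ZEB1: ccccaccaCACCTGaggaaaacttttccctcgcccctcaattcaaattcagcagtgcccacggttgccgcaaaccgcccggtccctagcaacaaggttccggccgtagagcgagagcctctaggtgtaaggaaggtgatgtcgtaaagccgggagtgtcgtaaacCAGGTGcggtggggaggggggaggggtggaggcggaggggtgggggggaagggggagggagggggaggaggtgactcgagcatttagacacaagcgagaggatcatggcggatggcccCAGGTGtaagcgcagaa
KRT8: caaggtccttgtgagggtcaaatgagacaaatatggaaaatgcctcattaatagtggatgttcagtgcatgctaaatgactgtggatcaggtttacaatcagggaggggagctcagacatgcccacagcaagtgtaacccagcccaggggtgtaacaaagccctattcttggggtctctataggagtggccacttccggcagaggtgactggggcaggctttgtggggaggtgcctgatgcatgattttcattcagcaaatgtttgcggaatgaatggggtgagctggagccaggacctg
VIM: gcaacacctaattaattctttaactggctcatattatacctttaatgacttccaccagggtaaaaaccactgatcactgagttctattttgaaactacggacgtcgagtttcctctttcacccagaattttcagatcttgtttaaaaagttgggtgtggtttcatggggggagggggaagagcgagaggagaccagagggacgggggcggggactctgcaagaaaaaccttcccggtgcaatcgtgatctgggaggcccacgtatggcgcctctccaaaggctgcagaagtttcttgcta
Among the 7 ZEB1 windows in the table, 1 other holds 1 match, at -57, and the CDH2 windows hold none. A match in these letters is a description of the window and not a measured site.

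Libraries held 32021638 to 39556154 fragments, recovered from the FPKM values (fragments of a gene scaled by its length and by the size of the library). The groups differed in depth and in mitochondrially encoded RNA, with overlap between some of them. That share was 4.10 to 4.68% in PANC-1 2D, 4.25 to 4.31% in AggreWell, 2.31 to 2.45% at 1 rpm and 1.57 to 1.62% at 30 rpm, and in HEK293T it was 4.70 to 4.86% in 2D, 3.44 to 3.58% in AggreWell, 3.38 to 3.56% at 1 rpm and 4.16 to 4.33% at 30 rpm. Depth was 38778091 to 39345190 fragments in HEK293T 2D and 32021638 to 32557265 at 30 rpm. The 12 PANC-1 markers summed to 3253 to 4254 FPKM in PANC-1 and 249 to 359 FPKM in HEK293T, and the 11 HEK293T markers in the table to 131 to 193 and 538 to 1240 FPKM. A few genes carry these sums, such as S100A6 (up to 2361 FPKM in PANC-1) and CKB (up to 1162 FPKM in HEK293T), and some listed markers went the other way. PAX2, listed for HEK293T, was at 4.14 to 9.05 FPKM in PANC-1 and 1.26 to 1.88 FPKM in HEK293T, DLK1 was at 0 in all 12 HEK293T libraries, and the ranges of LHX1 overlapped. ANXA3, listed for PANC-1, was at 0 to 0.108 FPKM there and 1.01 to 4.02 FPKM in HEK293T. Endothelial markers (CDH5, PECAM1, VWF) summed to at most 0.0491 FPKM and leukocyte markers (PTPRC, CD3E, LYZ) to at most 0.0332 FPKM in any library. The 6 fibroblast markers summed to 13.1 to 20.2 FPKM in PANC-1 and 9.48 to 11.8 FPKM in HEK293T, nearly all of it from the collagens COL1A1 and COL3A1, while FAP reached at most 0.0033 FPKM. Differences were tested with limma on log2(FPKM + 1), and a gene was called at a Benjamini-Hochberg adjusted p under 0.05. This scale understates changes of genes near or below 1 FPKM, for which FPKM ratios are also given.

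In PANC-1 the 2 abundant keratins KRT8 and KRT18 and the hair keratin KRT81 fell in every 3D format, ZEB1 rose in every 3D format, and EPCAM rose in both DRCC formats. CDH1, close to 0 in PANC-1 2D, also rose in each 3D format. In HEK293T, ZEB1, VIM, CDH1, EPCAM and KRT8 rose in all 3 formats, with the exceptions under other scalings given with each gene. Of 9 PANC-1 members that passed the filter (at least 1 FPKM in at least 3 libraries), 8 were called in AggreWell against 2D, 2 higher and 6 lower, where 70.0% of 11585 genes were called, 45.9% higher and 24.1% lower. At 1 rpm against 2D the counts were again 2 higher and 6 lower of 9, with 86.2% of genes called, 52.3% higher and 33.9% lower. At 30 rpm they were also 2 higher and 6 lower, with 85.8% of genes called, 53.6% higher and 32.2% lower. Of 7 HEK293T members tested, 5 were higher and 1 lower in AggreWell, where 75.4% of 12548 genes were called, 48.6% higher and 26.8% lower. All 7 were higher at 1 rpm (84.8% called, 53.1% higher), and 5 were higher and 1 lower at 30 rpm (85.0% called, 49.6% higher and 35.5% lower). Most genes in the table were called in these comparisons, so the number of members called is not a result about them. The same shares over all genes apply to the counts called in each gene list below, which are not results about the lists. Some members, such as ZEB1 and EPCAM in HEK293T, passed the filter only through groups where they were high. A call with a change of at least 2-fold on this scale was rarer. In PANC-1 it held for 1 member, KRT81, in AggreWell (lower; 0.224% of all genes lower and 1.22% higher), for KRT8 and KRT81 lower and ZEB1 higher at 1 rpm (3.72% and 10.5%) and for KRT8, KRT18 and KRT81 lower and ZEB1 higher at 30 rpm (3.26% and 10.9%). In HEK293T it held for KRT8 and ZEB1 higher in AggreWell (0.104% lower and 5.43% higher), and for ZEB1 alone, higher, at 1 rpm (2.67% and 12.2%) and at 30 rpm (3.87% and 11.6%). The median change of the tested members was -0.24, -0.48 and -0.38 in PANC-1 (AggreWell, 1 rpm and 30 rpm, each minus 2D), beside 0.10, 0.15 and 0.17 over all tested genes. In HEK293T it was 0.30, 0.67 and 0.42, beside 0.12, 0.18 and 0.13. Median-ratio scaling moved the medians of all genes to between -0.08 and -0.04. It also turned the split of calls, for example to 3336 higher and 4957 lower in PANC-1 AggreWell and 4022 higher and 5569 lower in HEK293T AggreWell.

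**Figure D1:**
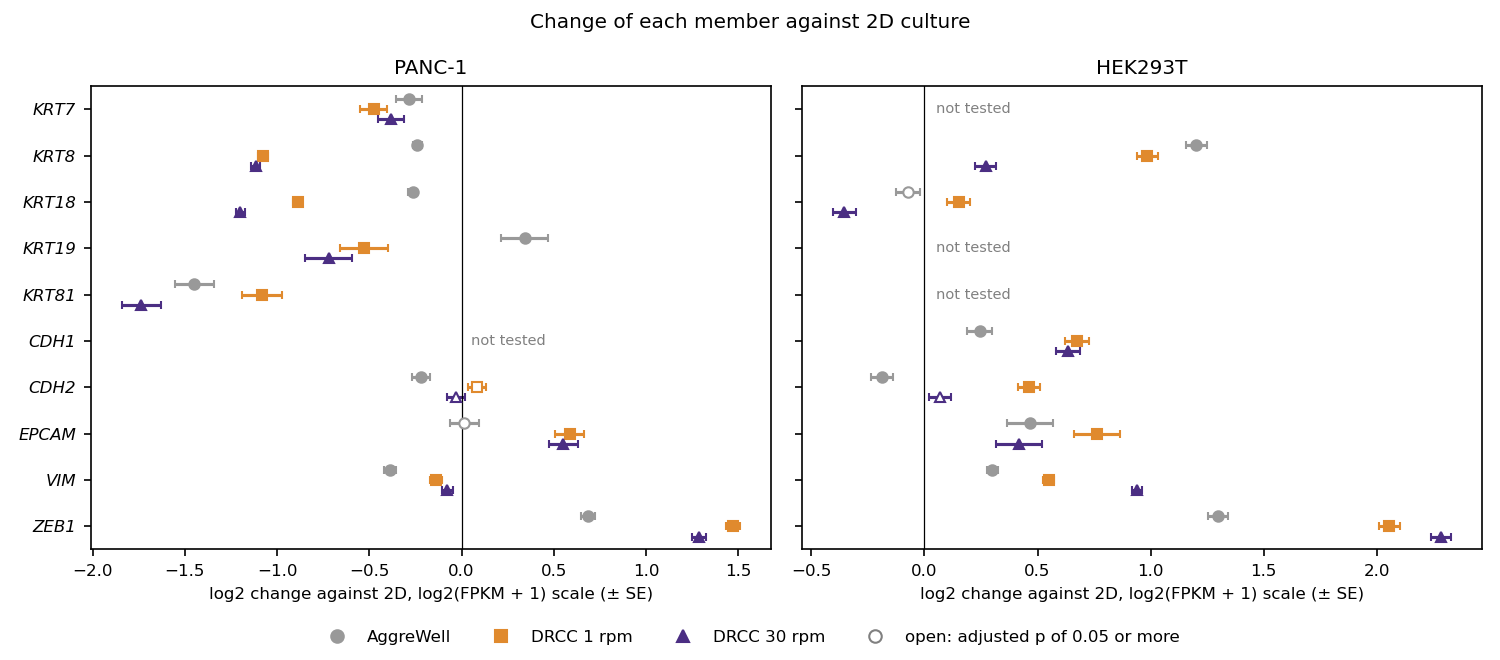
Change of each member against 2D on log2(FPKM + 1), limma estimate ± SE, for AggreWell, DRCC 1 rpm and DRCC 30 rpm in PANC-1 and HEK293T, with open symbols where the adjusted p was 0.05 or more and "not tested" where the gene did not pass the filter. ZEB1 lies above 0 in all 6 comparisons, while KRT8 lies below 0 in PANC-1 and above 0 in HEK293T. Under quantile normalization VIM lies above 0 at both PANC-1 DRCC speeds (0.24 and 0.42) and CDH1 below 0 in HEK293T AggreWell (-0.11), and KRT18 lies below 0 in HEK293T at 1 rpm under median-ratio scaling (-0.14).

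KRT8, the type II chain of simple epithelia, stood at 602, 586 and 587 FPKM in the PANC-1 2D libraries, at 494, 506 and 503 FPKM in AggreWell, at 287, 276 and 278 FPKM at 1 rpm and at 266, 279 and 273 FPKM at 30 rpm. All 2D libraries were above all AggreWell libraries, and these above all DRCC libraries, while the 2 DRCC speeds overlapped. KRT8 fell by 0.24 ± 0.03 (log2, SE, adjusted p = 1.5e-06) in AggreWell, by 1.08 ± 0.03 (1.1e-13) at 1 rpm and by 1.12 ± 0.03 (7.8e-14) at 30 rpm. The mean at 30 rpm was 0.461 of the 2D mean. In AggreWell the change was -0.03 with quantile normalization (adjusted p = 0.34). With mitochondrially encoded genes left out it was -1.001 at 1 rpm and -1.15 at 30 rpm. In HEK293T, KRT8 was at 29.7, 28.4 and 32.1 FPKM in 2D, 71.4, 70.3 and 69.3 FPKM in AggreWell, 63.7, 57.2 and 60.5 FPKM at 1 rpm and 36.9, 35.0 and 37.4 FPKM at 30 rpm. Each of these 4 groups was separate from the next, and the 2D libraries were the lowest. KRT8 rose by 1.20 ± 0.05 (adjusted p = 1.2e-10) in AggreWell and by 0.99 ± 0.05 (2.8e-10) at 1 rpm, and by 0.27 ± 0.05 (0.00011) at 30 rpm, where median-ratio scaling gave 0.07 (adjusted p = 0.21). From the highest to the lowest mean, the 8 groups ran PANC-1 2D (592 ± 8.89 FPKM, SD, n = 3), AggreWell, 1 rpm and 30 rpm, then HEK293T AggreWell, 1 rpm, 30 rpm and 2D (30.1 ± 1.86 FPKM).

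KRT18, the type I partner of KRT8, followed it closely in PANC-1. It stood at 576, 571 and 550 FPKM in 2D, at 479, 465 and 468 FPKM in AggreWell, at 303, 303 and 309 FPKM at 1 rpm and at 248, 240 and 248 FPKM at 30 rpm. None of the 4 groups overlapped. KRT18 fell by 0.26 ± 0.02 (adjusted p = 4.5e-07) in AggreWell, by 0.89 ± 0.02 (5.0e-13) at 1 rpm and by 1.20 ± 0.02 (2.8e-14) at 30 rpm, and in every scaling tried it kept that sign. In HEK293T, KRT18 was at 52.6, 48.9 and 53.1 FPKM in 2D, 48.5, 46.9 and 51.4 FPKM in AggreWell, 60.4, 53.0 and 58.8 FPKM at 1 rpm and 41.2, 40.7 and 38.4 FPKM at 30 rpm. Only the 30 rpm libraries stood apart from all 2D libraries. Their fall was 0.35 ± 0.05 (adjusted p = 2.4e-05). At 1 rpm the estimate was 0.15 ± 0.05 (adjusted p = 0.015) as deposited and -0.14 with median-ratio scaling, and it lost its call without 2D replicate 2 (0.11), 1 rpm replicate 1 (0.11) or 1 rpm replicate 3 (0.13). In AggreWell it was -0.07 ± 0.05 (0.21), with 0.04 under quantile normalization and 0.06 without mitochondrially encoded genes. Of the 75-base words of the longest KRT18 transcript, 5.36% also occur in 14 other genes, the pseudogene KRT18P11 most of all, so a small part of its reads is uncertain.

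The 2 partners were level in PANC-1 and not in HEK293T. The log2 ratio of KRT8 to KRT18, both per kilobase, was 0.06, 0.04 and 0.09 in the PANC-1 2D libraries and stayed between -0.15 and 0.22 in all 12 PANC-1 libraries. In HEK293T 2D it was -0.82, -0.78 and -0.73, so KRT8 was well below KRT18. In HEK293T AggreWell it was 0.56, 0.59 and 0.43, with KRT8 above KRT18, and in the HEK293T DRCC libraries it lay between -0.22 and 0.11. The HEK293T differences from 2D were 1.30 in AggreWell, 0.85 at 1 rpm and 0.64 at 30 rpm. Each had an exact two-sided permutation p of 0.1, the smallest that 3 libraries against 3 can give. A ratio within a library does not depend on how libraries are scaled to each other.

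KRT7, the type II keratin that marks duct and other glandular epithelium, was low in PANC-1, with 72 to 163 fragments per library. It stood at 1.52, 1.48 and 1.61 FPKM in 2D, 1.05, 0.893 and 1.32 FPKM in AggreWell, 0.794, 0.900 and 0.768 FPKM at 1 rpm and 0.865, 1.07 and 0.902 FPKM at 30 rpm. All 2D libraries were above all others. KRT7 fell by 0.28 ± 0.07 (adjusted p = 0.0032), 0.48 ± 0.07 (2.8e-05) and 0.38 ± 0.07 (0.00022) in AggreWell, at 1 rpm and at 30 rpm, and kept that sign in every scaling tried. KRT19, the type I keratin of duct epithelium, was as low. Its values were 1.69, 1.65 and 2.59 FPKM in 2D, 2.50, 2.48 and 3.27 FPKM in AggreWell, 0.782, 1.36 and 1.02 FPKM at 1 rpm and 0.858, 0.631 and 0.884 FPKM at 30 rpm. Both DRCC groups lay below 2D, and AggreWell overlapped with it. KRT19 fell by 0.53 ± 0.13 (adjusted p = 0.0016) at 1 rpm and by 0.72 ± 0.13 (0.00012) at 30 rpm. In AggreWell it was 0.34 ± 0.13 higher (adjusted p = 0.029), a call that was lost with a pseudocount of 0.1 (adjusted p = 0.052), with no filter (0.096), with median-ratio scaling (0.15) or quantile normalization (0.46), and without 2D replicate 1 (0.28), 2D replicate 2 (0.26) or AggreWell replicate 3 (0.25). The log2 ratio of KRT7 to KRT19 was -0.33 on average in 2D, -1.35 in AggreWell, -0.33 at 1 rpm and 0.27 at 30 rpm.

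KRT81, a type II keratin of hair, was the PANC-1 keratin with the largest fold change among these 5. It was at 7.46, 7.32 and 8.57 FPKM in 2D, 2.28, 1.87 and 2.52 FPKM in AggreWell, 3.38, 3.09 and 2.96 FPKM at 1 rpm and 1.25, 2.15 and 1.57 FPKM at 30 rpm. All 2D libraries were above all 3D libraries, and the AggreWell and 30 rpm libraries overlapped. KRT81 fell by 1.45 ± 0.11 (adjusted p = 5.2e-08) in AggreWell, by 1.08 ± 0.11 (3.4e-07) at 1 rpm and by 1.74 ± 0.11 (2.1e-09) at 30 rpm, where its mean was 0.213 of that in 2D. Of its 75-base words, 36.6% also occur in other genes, most of them in KRT86 (33.0%), so its reads may be divided among hair keratins. KRT86 itself was at 0.213 ± 0.056 FPKM in PANC-1 2D and 0.0848 ± 0.0315 FPKM at 30 rpm (SD, n = 3).

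HEK293T had next to none of these 3 keratins. KRT19 was at 0 in all 12 HEK293T libraries, and KRT7 and KRT81 each had 1 fragment in 1 library at 1 rpm and 0 in the other 11. None of the 3 was tested between formats there. A count of 0 allows up to 3 fragments per library. Against that floor, PANC-1 2D was at least 195-fold higher in KRT81, at least 53.2-fold higher in KRT7 and at least 35.7-fold higher in KRT19. These limits cover counting error only.

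**Figure D2:**
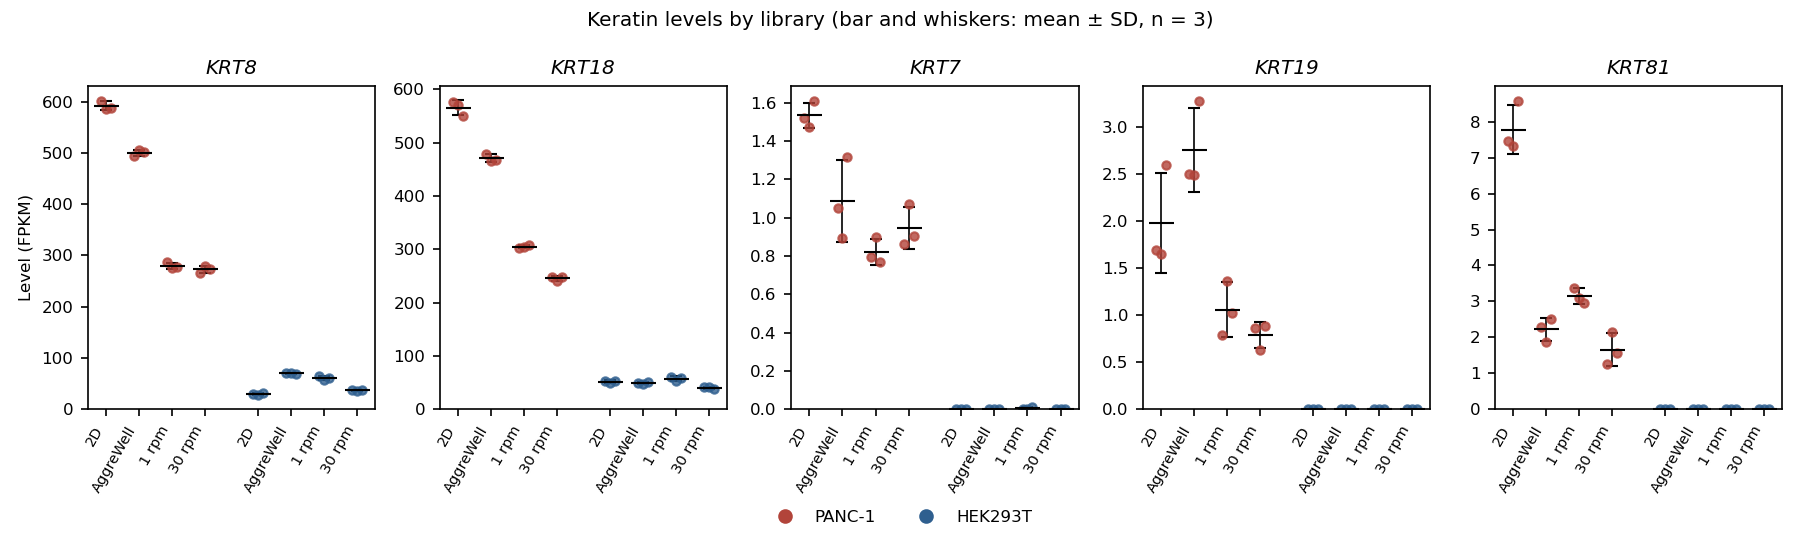
Level of KRT8, KRT7, KRT81, KRT18 and KRT19 in FPKM in each library (points) with the mean ± SD of 3 libraries (bars), for the 4 formats of PANC-1 and HEK293T. KRT8 and KRT18 fall from about 592 and 566 FPKM in PANC-1 2D to 273 and 245 FPKM at 30 rpm, while KRT8 is highest in HEK293T AggreWell at 70.3 FPKM.

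Of 23 other keratins, 20 were in the table and 2 passed the filter in either line. KRT80, a type II keratin of epithelia, fell in PANC-1 from 35.3 FPKM in 2D to 15.1, 8.52 and 4.88 FPKM in AggreWell, at 1 rpm and at 30 rpm, by 1.17 ± 0.05, 1.93 ± 0.05 and 2.63 ± 0.05 on the log2 scale. KRT10, the type I keratin of differentiating epidermis, fell in PANC-1 by 0.25 in AggreWell and 0.58 at 1 rpm, and at 30 rpm it was 0.16 as deposited and -0.08 under median-ratio scaling. KRT17, a type I keratin of basal and regenerating epithelium, was picked after its values were seen. It was at 0.101 FPKM in HEK293T 2D and 2.66 FPKM in AggreWell. Of the 2 genes tested in HEK293T, 1 was higher and 1 lower in AggreWell, and 2 were higher at 1 rpm. At 30 rpm neither was called. KRT10 rose in HEK293T by 0.49 ± 0.06 (adjusted p = 2.6e-06) at 1 rpm as deposited.

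Of 12 other intermediate filament genes, 11 were in the table. In PANC-1, 6 passed the filter, and 3 were higher and 3 lower in AggreWell (median 0.06), 1 and 5 at 1 rpm (-0.73), and 2 and 4 at 30 rpm (-0.29). Under median-ratio scaling the AggreWell median was -0.10. In HEK293T, of 8 tested, 4 were higher and 3 lower in AggreWell (median 0.16), 5 and 2 at 1 rpm (0.30), and 3 and 2 at 30 rpm (0.06), and quantile normalization turned these 3 medians to -0.09, -0.10 and -0.24. Lamin B1 (LMNB1), a filament of the nuclear envelope, fell in both lines, from 127 to 109, 43.8 and 41.9 FPKM in PANC-1 and from 113 to 83.6, 57.7 and 46.9 FPKM in HEK293T. Lamin B2 (LMNB2) fell by 0.66 in PANC-1 and by 0.71 in HEK293T at 1 rpm. At the 2 DRCC speeds in HEK293T the neurofilament light chain NEFL rose from 4.26 FPKM in 2D to 12.7 and 9.81 FPKM, by 1.37 ± 0.05 and 1.04 ± 0.05.

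CDH1 was lower in PANC-1 than in HEK293T in every format. In PANC-1 it was at 0.0466, 0.0949 and 0.0646 FPKM in 2D (9, 18 and 12 fragments), 0.268, 0.325 and 0.286 FPKM in AggreWell, 0.808, 0.863 and 0.816 FPKM at 1 rpm and 0.545, 0.528 and 0.537 FPKM at 30 rpm. All 4 groups were separate, with 2D the lowest and 1 rpm the highest. No PANC-1 library reached 1 FPKM, so CDH1 was tested there in a fit of 23743 genes with no filter. It rose by 0.27 ± 0.02 (adjusted p = 8.6e-06) in AggreWell, by 0.78 ± 0.02 (1.2e-09) at 1 rpm and by 0.52 ± 0.02 (2.1e-08) at 30 rpm. The ratios of mean FPKM to 2D were 4.26, 12.1 and 7.81. In that fit 37.3%, 50.5% and 50.3% of genes were called, 25.9%, 32.1% and 32.6% higher. The 3 rises kept their sign and their call in each other scaling tried, among them 0.22, 0.66 and 0.42 with quantile normalization.

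In HEK293T, CDH1 was at 1.18, 1.08 and 1.22 FPKM in 2D, 1.55, 1.61 and 1.52 FPKM in AggreWell, 2.46, 2.25 and 2.64 FPKM at 1 rpm and 2.25, 2.52 and 2.30 FPKM at 30 rpm. The 2D libraries were below AggreWell, AggreWell was below both DRCC speeds, and the DRCC speeds overlapped. CDH1 rose by 0.67 ± 0.05 (adjusted p = 7.1e-08) at 1 rpm and by 0.64 ± 0.05 (1.3e-07) at 30 rpm, where its mean was 2.03 times that in 2D. In AggreWell the change was 0.24 ± 0.05 (adjusted p = 0.0012) as deposited, 0.11 (0.076) with median-ratio scaling and -0.11 with quantile normalization.

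In PANC-1, CDH2 was at 6.72, 7.08 and 7.22 FPKM in 2D, 5.86, 6.12 and 5.61 FPKM in AggreWell, 7.48, 8.06 and 6.94 FPKM at 1 rpm and 6.94, 6.84 and 6.74 FPKM at 30 rpm. Only AggreWell lay apart from 2D, where CDH2 fell by 0.22 ± 0.05 (adjusted p = 0.0011). At 1 rpm the change was 0.08 ± 0.05 (0.12), with -0.12 under median-ratio scaling, -0.14 under quantile normalization and a call at 0.13 (0.021) without 1 rpm replicate 3. At 30 rpm it was -0.03 ± 0.05 (0.57), with -0.24 and -0.25 under these 2 scalings, both past the threshold. In HEK293T, CDH2 was at 5.26, 6.09 and 5.74 FPKM in 2D, 4.67, 5.01 and 4.94 FPKM in AggreWell, 8.29, 8.18 and 8.15 FPKM at 1 rpm and 6.26, 6.05 and 5.73 FPKM at 30 rpm. The 1 rpm libraries were the highest of all 24, and AggreWell lay below 2D. CDH2 rose by 0.46 ± 0.05 (adjusted p = 1.1e-06) at 1 rpm and fell by 0.19 ± 0.05 (0.0035) in AggreWell, where it was -0.07 (0.19) without mitochondrially encoded genes. At 30 rpm it was 0.07 ± 0.05 (0.21), with -0.11 under median-ratio scaling, -0.22 under quantile normalization and a call at 0.11 (0.0487) without 2D replicate 2.

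The ratio of CDH2 to CDH1 was lower in every 3D format than in 2D. In PANC-1 it was 106 to 1 in 2D (geometric mean of 3 libraries), 20.1 to 1 in AggreWell, 9.03 to 1 at 1 rpm and 12.7 to 1 at 30 rpm. On the log2 scale these were differences of -2.41, -3.56 and -3.06 from 2D, and none of the PANC-1 groups overlapped. In HEK293T the ratio was 4.90, 3.12, 3.36 and 2.55 to 1 in the same order. No 3D library overlapped with those of 2D in either line, with an exact two-sided permutation p of 0.1 in all 6 comparisons, the smallest possible. CDH2 exceeded CDH1 in all 24 libraries.

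**Figure D3:**
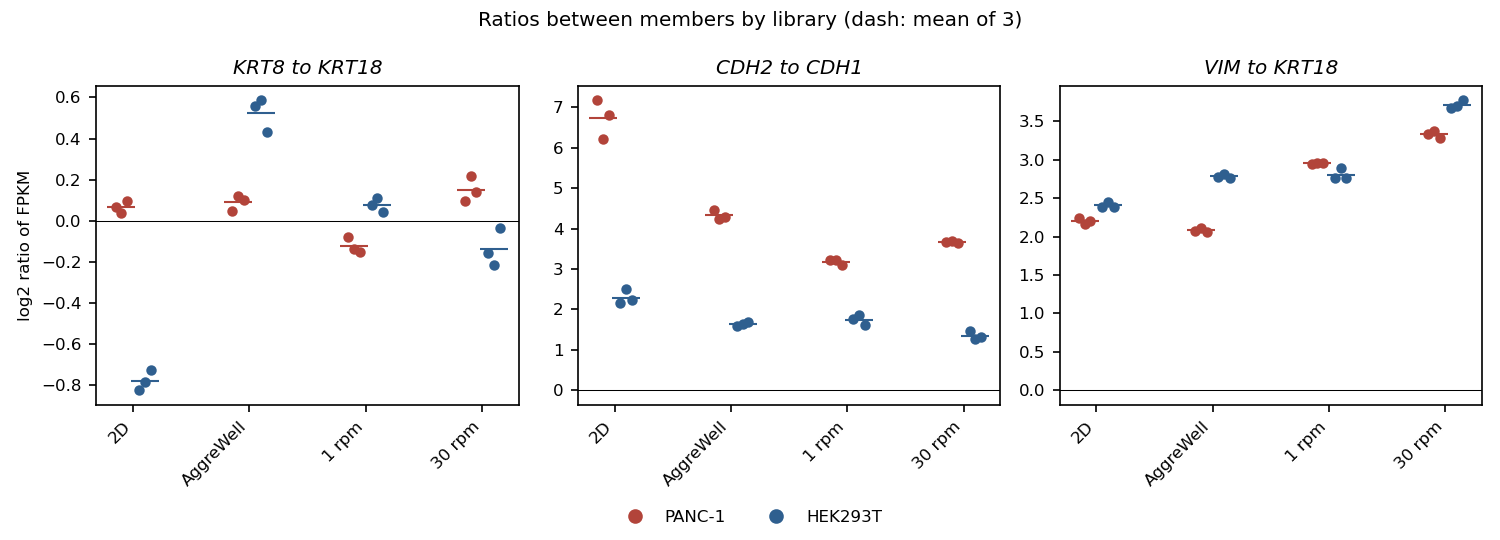
Log2 ratios of KRT8 to KRT18, CDH2 to CDH1 and VIM to KRT18 in each library (points) with the mean of 3 libraries (bars), for the 4 formats of each line. The CDH2 to CDH1 ratio is highest in PANC-1 2D, at 6.73 on average, and the KRT8 to KRT18 ratio is below 0 in HEK293T 2D and above 0 in HEK293T AggreWell.

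Few partners of the cadherins passed the filter: of 16 other classical cadherins and catenins, 3 catenins did in each line. In PANC-1, 1 was higher and 1 lower in AggreWell and 2 higher and 1 lower at each DRCC speed. In HEK293T the counts were 0 and 2, 2 and 1, and 1 and 1. Their medians in PANC-1 were -0.00, 0.20 (-0.03 under median-ratio scaling) and 0.32, and in HEK293T -0.12 (0.08 under quantile normalization), 0.16 (-0.13 under median-ratio scaling) and -0.03 (0.09 under quantile normalization). Plakoglobin (JUP), which links both cadherins and desmosomal cadherins to the cytoskeleton, rose in PANC-1 from 20.7 to 32.8, 44.1 and 46.0 FPKM, by 0.64, 1.06 and 1.12 on the log2 scale. In HEK293T it went from 15.7 FPKM to 24.2 FPKM at 1 rpm and 24.5 FPKM at 30 rpm, a rise of 0.61 ± 0.04 at 30 rpm. In HEK293T AggreWell, by contrast, JUP was called lower than in 2D as deposited. Beta-catenin (CTNNB1), the close relative of JUP and the signal carrier of the WNT pathway, fell in every 3D format in both lines as deposited. At 1 rpm and 30 rpm its fall was 0.37 and 0.53 in PANC-1 and 0.47 and 0.50 in HEK293T. CTNNB1 was also called lower in AggreWell in each line.

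EPCAM, a surface glycoprotein of epithelial cells, was low in both lines (39 to 168 fragments per library). In PANC-1 it stood at 1.57, 1.16 and 1.65 FPKM in 2D, 1.47, 1.42 and 1.54 FPKM in AggreWell, 2.70, 2.60 and 2.75 FPKM at 1 rpm and 2.94, 2.27 and 2.60 FPKM at 30 rpm. All DRCC libraries were above all 2D and AggreWell libraries. EPCAM rose by 0.59 ± 0.08 (adjusted p = 8.1e-06) at 1 rpm and by 0.55 ± 0.08 (1.5e-05) at 30 rpm. In AggreWell the change was 0.01 ± 0.08 (0.88), with -0.10 under median-ratio scaling and -0.24 under quantile normalization. In HEK293T the values were 0.898, 0.646 and 0.803 FPKM in 2D, 1.26, 1.74 and 1.40 FPKM in AggreWell, 2.15, 1.62 and 2.34 FPKM at 1 rpm and 1.61, 1.35 and 1.19 FPKM at 30 rpm. Every 3D library was above every 2D library, and the 3D formats overlapped in part. EPCAM rose by 0.76 ± 0.10 (adjusted p = 1.1e-05) at 1 rpm. It also rose by 0.47 ± 0.10 (0.0011) in AggreWell and by 0.42 ± 0.10 (0.0019) at 30 rpm, where quantile normalization gave 0.11 (0.33) and 0.08 (0.48).

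Desmosomes anchor keratin filaments at cell contacts, and cytolinkers tie filaments to them. Of 15 such genes, 10 passed the filter in PANC-1, with 7 higher and 1 lower in AggreWell (median 0.38), 5 and 4 at 1 rpm (0.23) and 5 and 4 at 30 rpm (0.09, or -0.14 with 3 and 5 under median-ratio scaling). In HEK293T, of 8 tested, 5 were higher and 1 lower in AggreWell (median 0.29). All 8 were higher at 1 rpm (0.41), where 84.8% of all tested genes were called and 53.1% were higher. At 30 rpm 3 were higher and 1 lower (0.04). Median-ratio scaling gave 4 higher and 1 lower at 1 rpm, and 2 higher and 5 lower at 30 rpm with a median of -0.13. Desmoplakin (DSP), which binds keratin filaments to desmosomes, rose from 12.2 to 17.4, 22.7 and 18.2 FPKM in PANC-1 and from 10.1 to 17.1, 17.0 and 14.2 FPKM in HEK293T. Periplakin (PPL) rose in PANC-1 from 20.8 to 39.6, 43.5 and 25.7 FPKM (at 30 rpm 0.29, or 0.06 with adjusted p = 0.13 under median-ratio scaling) and plectin (PLEC) from 23.2 to 33.4, 34.3 and 42.5 FPKM. The desmosomal cadherin DSG2 rose in HEK293T from 19.5 to 31.7, 37.1 and 26.5 FPKM. Plakophilin 3 (PKP3) fell in PANC-1 by 0.74 at 1 rpm.

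Of 20 tight junction and epithelial surface genes, 12 were tested in PANC-1, with 6 higher and 3 lower in AggreWell (median 0.15), 9 and 3 at 1 rpm (0.32) and 9 and 3 at 30 rpm (0.38). Under median-ratio scaling the AggreWell counts were 6 and 6, with a median of -0.02. In HEK293T, of 9 tested, 4 were higher and 3 lower in AggreWell, 4 and 2 at 1 rpm and 3 and 4 at 30 rpm, with medians of -0.07 (0.04 without mitochondrially encoded genes), 0.06 (-0.20 under median-ratio scaling) and -0.10. Claudins form the seals of tight junctions. In PANC-1, CLDN1 fell by 1.71 ± 0.06 on the log2 scale at 30 rpm, from 6.18 FPKM in 2D to 2.79, 1.73 and 1.20 FPKM in AggreWell, at 1 rpm and at 30 rpm. CLDN7 rose in PANC-1 from 15.1 to 20.7, 28.8 and 30.6 FPKM, by 0.97 ± 0.05 at 30 rpm, and CLDN4 rose there by 0.90 ± 0.03 at 30 rpm. Occludin (OCLN) rose in HEK293T by 0.87 ± 0.04 at 1 rpm, and the protease inhibitor SPINT2 fell there by 0.94 ± 0.09 at 30 rpm.

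VIM, the filament protein of mesenchymal cells, was the most abundant of the 10 members in every group. In PANC-1 it was at 2732, 2567 and 2528 FPKM in 2D, 2015, 2018 and 1948 FPKM in AggreWell, 2343, 2369 and 2391 FPKM at 1 rpm and 2497, 2496 and 2424 FPKM at 30 rpm. The 2D libraries were the highest, and AggreWell lay well below all others. VIM fell by 0.39 ± 0.03 (adjusted p = 1.1e-07) in AggreWell. At 1 rpm it was -0.14 ± 0.03 (adjusted p = 0.00078) and at 30 rpm -0.08 ± 0.03 (0.031), while quantile normalization gave 0.24 and 0.42. The 1 rpm value was -0.06 (0.085) without mitochondrially encoded genes, and the 30 rpm call was lost with no filter (0.16), in a fit of its own 2 formats (0.12), and without 2D replicate 1 (-0.04) or 30 rpm replicate 3 (-0.06). In HEK293T, VIM was at 276, 268 and 278 FPKM in 2D, 333, 330 and 348 FPKM in AggreWell, 409, 395 and 400 FPKM at 1 rpm and 526, 527 and 524 FPKM at 30 rpm. None of these groups overlapped. VIM rose there by 0.30 ± 0.02 (adjusted p = 1.1e-07), 0.55 ± 0.02 (1.3e-10) and 0.94 ± 0.02 (7.2e-13), and median-ratio scaling gave 0.07, 0.25 and 0.73, all called. The reads of VIM and of its antisense partner VIM-AS1 cannot be told apart where they overlap, since no source used here says that strand was counted. VIM-AS1 was at 40.7 ± 17.1 FPKM in PANC-1 2D, where 1 library reached 60.4 FPKM, and at 7.68 ± 0.69 FPKM at 30 rpm.

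The log2 ratio of VIM to KRT18 was 2.20 on average in PANC-1 2D, 2.08 in AggreWell, 2.96 at 1 rpm and 3.33 at 30 rpm. The AggreWell libraries lay below those of 2D and the DRCC libraries above them. In HEK293T it was 2.41 in 2D, 2.78 in AggreWell, 2.81 at 1 rpm and 3.71 at 30 rpm, with all 3D libraries above 2D. Each of these 6 differences had an exact two-sided permutation p of 0.1, the smallest possible, and 21 differences of ratios were tested in all.

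**Figure D4:**
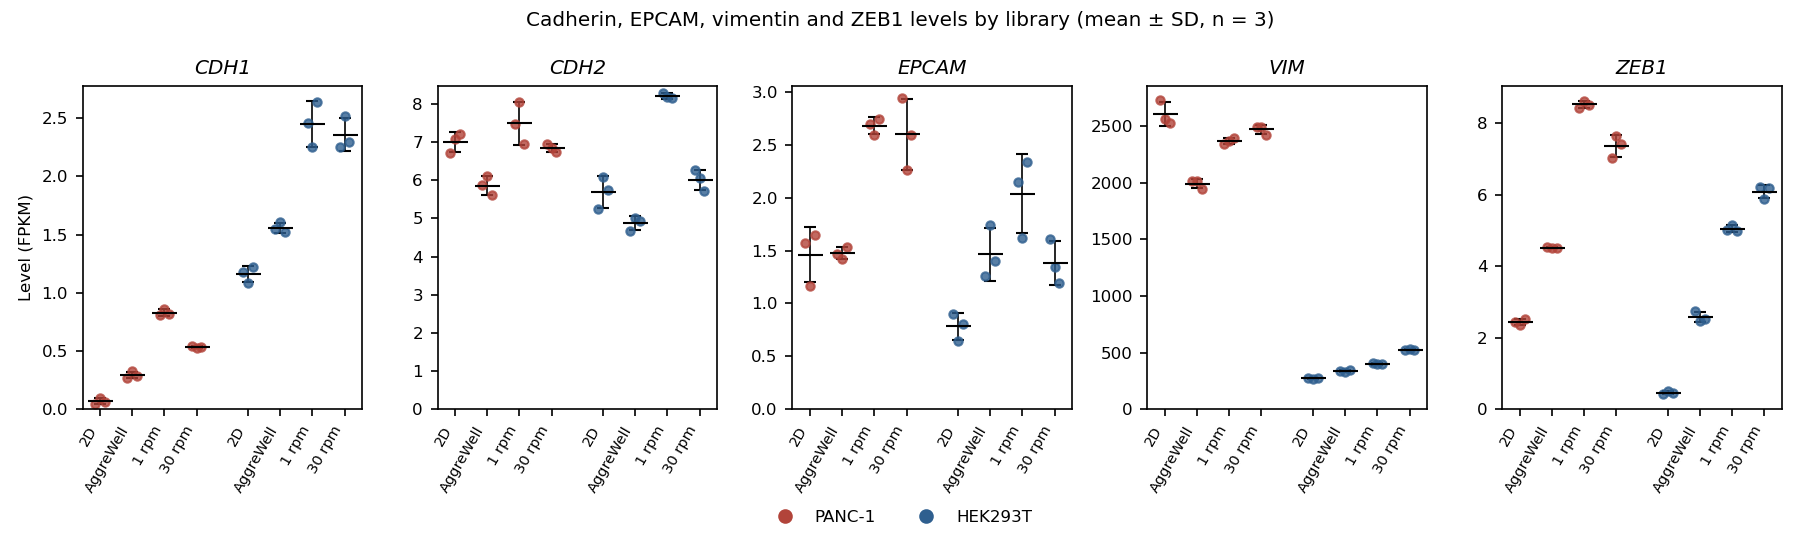
Level of CDH1, CDH2, EPCAM, VIM and ZEB1 in FPKM in each library (points) with the mean ± SD of 3 libraries (bars), for the 4 formats of PANC-1 and HEK293T. ZEB1 is lowest in 2D in both lines (2.44 and 0.456 FPKM) and highest at 1 rpm in PANC-1 (8.53 FPKM) and at 30 rpm in HEK293T (6.09 FPKM), and CDH1 as deposited is also lowest in 2D.

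ZEB1 was the member with the largest rise by ratio of FPKM in HEK293T. There it stood at 0.420, 0.506 and 0.442 FPKM in 2D, 2.75, 2.48 and 2.53 FPKM in AggreWell, 5.01, 5.15 and 4.99 FPKM at 1 rpm and 6.22, 5.87 and 6.18 FPKM at 30 rpm. All 4 groups were separate. ZEB1 rose by 1.30 ± 0.05 (adjusted p = 4.9e-11), 2.06 ± 0.05 (2.5e-13) and 2.28 ± 0.05 (9.0e-14), and its mean was 5.66, 11.1 and 13.3 times that in 2D. In PANC-1 it was at 2.45, 2.35 and 2.52 FPKM in 2D, 4.54, 4.50 and 4.52 FPKM in AggreWell, 8.44, 8.63 and 8.51 FPKM at 1 rpm and 7.04, 7.65 and 7.43 FPKM at 30 rpm. These groups did not overlap either, and 1 rpm was the highest. ZEB1 rose by 0.68 ± 0.04 (adjusted p = 3.3e-09), 1.47 ± 0.04 (2.8e-13) and 1.28 ± 0.04 (1.1e-12), or 1.86, 3.50 and 3.03 times the 2D mean. Under median-ratio scaling, quantile normalization and without mitochondrially encoded genes, all 6 rises kept their sign and their call. In the same libraries CDH1, which ZEB1 is known to repress, was also higher than in 2D, with the exceptions in HEK293T AggreWell given above. In PANC-1 the fibroblast markers summed to 13.3 to 14.2 FPKM in 2D and 13.1 to 13.9 FPKM in AggreWell. At 1 rpm they summed there to 19.1 to 20.2 FPKM and at 30 rpm to 18.5 to 19.6 FPKM. In HEK293T the sums were 9.48 to 10.3, 10.38 to 10.47, 10.37 to 11.79 and 9.72 to 10.55 FPKM in the same order. The part of these markers in the ZEB1 result was not tested. The antisense gene ZEB1-AS1 was at 1.07, 1.46, 2.53 and 2.88 FPKM in PANC-1 and at 1.79, 1.92, 3.61 and 3.20 FPKM in HEK293T (2D, AggreWell, 1 rpm, 30 rpm), and its reads and those of ZEB1 cannot be told apart where they overlap.

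Of 12 other EMT transcription factors, 4 passed the filter in PANC-1. None was higher and 2 were lower in AggreWell (median -0.08, or 0.02 without mitochondrially encoded genes), 2 were higher and 2 lower at 1 rpm (0.13, or -0.09 under median-ratio scaling) and 3 were higher and 1 lower at 30 rpm (0.50). SNAI1, another repressor of CDH1, rose in PANC-1 from 6.45 FPKM in 2D to 18.5 FPKM at 1 rpm and 36.4 FPKM at 30 rpm, by 1.39 ± 0.06 and 2.33 ± 0.06, and was at 6.71 FPKM in AggreWell (0.05 ± 0.06, or -0.12 under median-ratio scaling). FOXC2 rose by 0.85 ± 0.06 at 30 rpm. In HEK293T, of 10 tested, 2 were higher and 4 lower in AggreWell (median -0.02, or 0.10 without mitochondrially encoded genes), 9 and 1 at 1 rpm (0.25) and 5 and 2 at 30 rpm (0.10, or -0.15 under median-ratio scaling). Under median-ratio scaling the 1 rpm counts were 3 and 3 of 9, with a median of 0.01. SNAI2 rose there from 36.2 FPKM in 2D to 55.3 and 96.3 FPKM at 1 rpm and 30 rpm, by 0.60 ± 0.03 and 1.39 ± 0.03. ZEB2, the closest relative of ZEB1, was picked after its values were seen. It was at 1.21 FPKM in HEK293T 2D and at 2.70, 2.49 and 2.59 FPKM in the 3 other formats.

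Of 12 epithelial transcription and splicing factors, 6 passed the filter in PANC-1, with 1 higher and 1 lower in AggreWell (median -0.02), 3 and 2 at 1 rpm (0.15) and 3 and 1 at 30 rpm (0.29). Quantile normalization gave medians of -0.07 at 1 rpm and -0.06 at 30 rpm. FOXA2, a factor of endoderm and pancreas, rose there from 15.2 to 25.8 FPKM at 30 rpm. In HEK293T, of 4 tested, 1 was higher and 1 lower, 3 and 0, and 1 and 2, with medians of -0.03, 0.35 and -0.03. The 1 rpm median was -0.05 under quantile normalization, and the other 2 were 0.07 and 0.11 without mitochondrially encoded genes. KLF5, a factor of proliferating epithelium, was 0.34 ± 0.09 (adjusted p = 0.0024) at 1 rpm there and 0.07 (0.42) under median-ratio scaling.

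Of 20 mesenchymal genes other than VIM, 10 were tested in PANC-1, with 1 higher and 4 lower in AggreWell (median -0.05, or 0.02 without mitochondrially encoded genes), 4 and 3 at 1 rpm (-0.02, or 0.07 under quantile normalization) and 6 and 3 at 30 rpm (0.30). The collagen chain COL5A1 fell in AggreWell from 8.03 to 3.41 FPKM. In HEK293T, of 12 tested, 9 were higher and 1 lower in AggreWell (median 0.49), 10 and 2 at 1 rpm (0.42) and 6 and 3 at 30 rpm (0.10, or -0.06 with 4 and 5 under median-ratio scaling). Fibronectin (FN1) rose there from 2.59 to 6.91, 5.53 and 6.01 FPKM. The collagen cross-linker LOX rose in AggreWell from 3.85 to 18.0 FPKM and was at 1.94 FPKM at 30 rpm, a fall of 0.72 ± 0.07 from 2D. MMP2, a matrix protease, rose by 1.27 ± 0.07 at 1 rpm. Of 10 PANC-1 markers tested in PANC-1, 1 was higher and 7 lower in AggreWell, 1 and 8 at 1 rpm and 3 and 7 at 30 rpm, among them CAV1, which fell by 1.59 at 1 rpm. In HEK293T, 8 of them were tested, with 6 and 0, 5 and 1, and 4 and 3. Of the HEK293T markers, 4 were higher and 2 lower of 10 in HEK293T AggreWell, 5 and 3 at 1 rpm and 4 and 4 at 30 rpm, and of the 6 tested in PANC-1 the counts were 4 and 2, 2 and 3, and 4 and 1.

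The 3D formats differed among themselves. At 1 rpm against AggreWell, 5 PANC-1 members were higher and 4 lower of 9 (82.0% of genes called, 43.7% higher and 38.4% lower), and at 30 rpm 4 were higher and 4 lower (83.3% called, 45.4% and 37.8%). KRT8 fell by 0.84 and 0.88 and KRT18 by 0.62 and 0.94 in these comparisons, while VIM rose by 0.25 and 0.31 and ZEB1 by 0.79 and 0.60. In HEK293T, 6 were higher and 1 lower at 1 rpm against AggreWell (75.6% called, 41.8% and 33.8%), and 4 were higher and 2 lower at 30 rpm (78.5% called, 39.9% and 38.7%). KRT8 fell there by 0.22 and 0.93, and CDH2 rose by 0.65 and 0.26. Between the 2 speeds, PANC-1 had 3 members lower at 30 rpm and none higher of 9 (68.1% of genes called, 36.2% and 31.9%). They were KRT18 (-0.31 ± 0.02), KRT81 (-0.65 ± 0.11) and ZEB1 (-0.19 ± 0.04). In HEK293T, 2 were higher and 4 lower at 30 rpm than at 1 rpm (52.6% called, 19.6% and 32.9%), with VIM higher by 0.39 ± 0.02 and ZEB1 by 0.23 ± 0.05, and KRT8 lower by 0.71, KRT18 by 0.51, CDH2 by 0.39 and EPCAM by 0.35 on the log2 scale. That of EPCAM lost its call without 1 rpm replicate 3 (-0.27) or 30 rpm replicate 3 (-0.29). In PANC-1 the fall of KRT81 from AggreWell to 30 rpm was -0.29 (adjusted p = 0.023), with -0.17 to -0.27 and no call without AggreWell replicate 1 or 3 or 30 rpm replicate 1 or 3. The KRT7 change from AggreWell to 1 rpm was -0.19, and it was not called without AggreWell replicate 3 (-0.11), 1 rpm replicate 1 (-0.18) or 1 rpm replicate 3 (-0.17). The HEK293T rise of EPCAM from AggreWell to 1 rpm was 0.30 (adjusted p = 0.018), and it lost its call, at 0.23 to 0.28, without AggreWell replicate 1 or 3 or 1 rpm replicate 1 or 3.

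Levels were also compared between the lines. In 2D, 9 of 10 were higher in PANC-1 and 1 was lower, where 90.7% of 13392 genes were called, 34.7% higher and 56.1% lower. The counts were 8 and 1 in AggreWell (91.2% called, 33.5% and 57.7%), 8 and 2 at 1 rpm (91.1%, 34.1% and 57.0%) and 9 and 1 at 30 rpm (90.6%, 35.2% and 55.5%). The number called in either direction is near the share of all genes, and KRT7, KRT19 and KRT81 passed the filter only through PANC-1, so the counts are no result about the members. CDH1 was the member lower in PANC-1 in all 4 formats, by 1.02 ± 0.04 in 2D on the log2 scale, and its PANC-1 mean there was 0.0592 of that in HEK293T. KRT8 was 19.7 times, KRT18 10.98 times and VIM 9.53 times the HEK293T level in 2D. ZEB1 was 5.34 times as high in 2D and 1.21 times as high at 30 rpm. EPCAM did not pass the threshold in AggreWell (0.01 ± 0.09, adjusted p = 0.92). CDH2 was within 1.23-fold in all formats, and at 1 rpm it was -0.12 ± 0.05 (adjusted p = 0.027) as deposited and 0.18 and 0.13 under median-ratio scaling and quantile normalization. It was not called without PANC-1 replicate 1 (-0.12), PANC-1 replicate 3 (-0.07) or HEK293T replicate 1 (-0.11). The level difference of EPCAM at 1 rpm, 0.28, was 0.18 and not called without HEK293T replicate 2.

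The response to a format was tested as the change in PANC-1 minus the change in HEK293T. In AggreWell, 1 of 10 was higher and 7 lower (57.0% of genes called, 25.0% higher and 32.0% lower), at 1 rpm none was higher and 8 were lower (75.8%, 35.8% and 40.0%), and at 30 rpm none was higher and 7 lower (79.5%, 42.0% and 37.5%). The counts called are near the shares of all genes at 1 rpm and 30 rpm, and they include KRT7, KRT19 and KRT81, for which no response could be measured in HEK293T, so they are no result about the members. The 3 tests share the 2D libraries, so their values are given side by side and are not independent. KRT8 had the largest difference in response at 1 rpm, -2.06 ± 0.05 (adjusted p = 4.1e-18), since it fell in PANC-1 and rose in HEK293T. It was -1.44 ± 0.05 in AggreWell and -1.39 ± 0.05 at 30 rpm. For VIM the differences were -0.69, -0.69 and -1.02 (each ± 0.04), and for ZEB1, which rose in both lines, -0.61, -0.58 and -0.999 (each ± 0.05). On this scale ZEB1 rose less in PANC-1 than in HEK293T. CDH1 had differences of 0.03 ± 0.06 (adjusted p = 0.69), 0.10 ± 0.06 (0.14) and -0.11 ± 0.06 (0.10) with a pseudocount of 1. Without HEK293T 1 rpm replicate 3 the 1 rpm value was 0.14 and called (0.0414). With a pseudocount of 0.1 the differences were 0.83, 1.46 and 0.96, all called, so the answer for CDH1 depends on how values under 1 FPKM are weighted. For KRT7, KRT19 and KRT81, of which HEK293T libraries had at most 1 fragment, the difference is only the change in PANC-1 and shows no difference in response. The KRT19 difference in AggreWell (0.34, adjusted p = 0.047) lost its call when any 1 HEK293T 2D or AggreWell library was left out, or PANC-1 2D replicate 1 or 2 or AggreWell replicate 3.

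The genes most like members over the 12 libraries of a line were found by Pearson correlation on log2(FPKM + 1), among 1944 genes in PANC-1 and 2068 in HEK293T with a mean of at least 5 FPKM in 1 group and a log2 range of at least 1 over groups. The libraries fall into 4 formats, so these values describe a shared pattern over formats and depth and carry no test. In PANC-1, KRT8 was most like AIMP2 (0.998) and DCBLD2 (0.998), KRT18 like CCNB1 (0.998) and RFWD3 (0.997), and ZEB1 like VAT1 (0.999) and LRP1 (0.997). KRT19 was most like NIPSNAP3A (0.969), EPCAM like HOXB4 (0.970), VIM like COL5A1 (0.960), KRT7 like IFRD2 (0.928) and CDH2 like NOCT (0.920). In HEK293T, ZEB1 was most like USP25 (0.999) and JUN (0.999), VIM like OSGIN1 (0.993) and ERRFI1 (0.992), CDH1 like ATXN2L (0.988) and EIF2A (0.988), and KRT8 like MELTF (0.983) and ANKRD37 (0.979). CDH2 was most like BSG-AS1 (0.950) and EPCAM like KIF1A (0.926). KRT18 had no close match in HEK293T, where NUP210 was the first at 0.742.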

How the data were processed

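The deposited table gives FPKM values per gene, made by the authors from reads of libraries prepared with TRIzol RNA and a VAHTS Universal V10 kit, per the labels' protocols. The tools named, per the submitters' processing notes, are HISAT2, HTSeq, fastp and R 3.2.0, without their roles, and mm10 is the only build named, although the gene symbols are human. The sources used here do not give whether strand was counted. The genes and gene lists were chosen with earlier results of these data known. For 26449 of 26450 genes the FPKM values were whole multiples, within 0.01, of what 1 fragment is worth, which gave 32021638 to 39556154 fragments per library. Replicate libraries differed by more than counting error, with a chi-square per degree of freedom of 2.81 to 9.81 over 24 pairs.

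Genes with at least 1 FPKM in at least 3 libraries of a fit were tested on log2(FPKM + 1) with limma 3.58.1 (trended variance, R 4.3.3), in 1 fit per line for formats and in 1 fit of all 24 libraries for levels and responses, with Benjamini-Hochberg adjustment within each comparison. Ratios of 2 members were tested with exact permutation tests (Python 3.11.15, scipy 1.17.1). The fits were tested on simulated data, but no error rate from that test is given here. Named list genes are among the up to 4 called genes per list and line with the largest change and a group mean of at least 5 FPKM. Results were recomputed with other filters (none, or a mean of at least 5 FPKM), a pseudocount of 0.1, other scalings (median-ratio, quantile normalization, mitochondrially encoded genes left out), voom on recovered fragments, a fit of the 2 formats alone, a replicate block, ratios of FPKM + 1, and each library left out. The alternatives of the ratios without 1 library, of the unfiltered CDH1 fit, of the named list genes and of the list counts were added after seeing the data.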

Additional observations from a re-analysis of the deposited data

Results flagged for a closer look

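The response to a 3D format (change against 2D in PANC-1 minus that in HEK293T, log2(FPKM + 1), limma with Benjamini-Hochberg adjustment) was called different between the lines in 23 of 30 tests of members. Of all genes, 57.0% were called in AggreWell, 75.8% at 1 rpm and 79.5% at 30 rpm, so this count is no result about the members. It includes 9 tests of genes that HEK293T did not express at a measurable level.

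For KRT8 the difference was -1.44 in AggreWell, -2.06 at 1 rpm and -1.39 at 30 rpm, with a fall in PANC-1 and a rise in HEK293T in each format. For KRT18, its partner, the differences were -0.19, -1.04 and -0.85. In AggreWell that of KRT18 was -0.12 (adjusted p = 0.081) under quantile normalization.

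The values of KRT81 were -1.45, -1.09 and -1.74, those of KRT7 -0.28, -0.48 and -0.38, and those of KRT19 0.34, -0.53 and -0.72. HEK293T had at most 1 fragment of any of these 3 genes in a library, so no response could be measured there. These values are the PANC-1 changes themselves and show no difference in response.

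VIM differed by -0.69 in AggreWell, -0.69 at 1 rpm and -1.02 at 30 rpm, having risen in all HEK293T formats. ZEB1 differed by -0.61, -0.58 and -0.999, although it rose in both lines. CDH2 differed by -0.38 at 1 rpm, where it rose in HEK293T. EPCAM differed by -0.45 in AggreWell, where it rose in HEK293T.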

How the results depend on the processing

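Of 166 results on single members, 144 were called, and 122 kept their direction and their side of the threshold under every alternative run. A minimum mean of 5 FPKM left 5 members to test in PANC-1 and 4 in HEK293T and between the lines. The counts called against 2D were then 5, 4 and 4 of 5 in PANC-1 (AggreWell, 1 rpm, 30 rpm) and 3, 4 and 3 of 4 in HEK293T. Most genes were called there too, for example 2993 higher and 2471 lower of 7425 in PANC-1 AggreWell, 3513 and 3056 at 1 rpm, and 3415 and 2931 of 8078 in HEK293T AggreWell. Against AggreWell the counts of members were 5 and 5 in PANC-1 and 4 at 1 rpm in HEK293T. Over all genes, 3117 were higher and 3177 lower, 3339 and 3042, and in HEK293T 3264 and 3069. For the response the members were 3, 4 and 3. Of 8028 genes, 2395 were higher and 2524 lower, 3258 and 3205, and 3746 and 2937. For the level 4 members were called in each format. Over all genes, for example, 3084 were higher and 4372 lower in 2D. These counts are no result about the members. Between the PANC-1 speeds the count of 3 became 6 with quantile normalization, 5 without mitochondrially encoded genes and 5 with voom. With quantile normalization 3762 genes were higher and 4237 lower of 11585. Without mitochondrially encoded genes they were 2943 and 5063 of 11579, and with voom 4197 and 3763 of 11585. The cause was not tested. Without 1 library the counts ranged from 7 to 9 in PANC-1 against 2D and from 6 to 7 in HEK293T.

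Other signs came from these settings, and the cause was not tested. Median-ratio scaling and quantile normalization gave EPCAM -0.10 and -0.24 in PANC-1 AggreWell, CDH2 -0.12 and -0.14 at PANC-1 1 rpm, CDH2 -0.11 and -0.22 at HEK293T 30 rpm and CDH2 0.18 and 0.13 between lines at 1 rpm. They also gave CDH1 0.022 and 0.053 between the HEK293T speeds, and CDH1 0.021 and 0.083 for the 30 rpm response. Median-ratio scaling alone turned KRT18 at HEK293T 1 rpm (-0.14), CTNNA1 there (-0.13) and TCF3 there (-0.19). Quantile normalization alone turned VIM at PANC-1 1 rpm (0.24) and 30 rpm (0.42), KRT18 (0.041) and CDH1 (-0.11) in HEK293T AggreWell, and the CDH2 response to AggreWell (0.14). Leaving out mitochondrially encoded genes turned VIM between the PANC-1 speeds (-0.046), KRT18 in HEK293T AggreWell (0.058), the CDH1 response to AggreWell (-0.024) and LEF1 at HEK293T 30 rpm (0.042). The CDH1 response at 30 rpm was 0.96 with a pseudocount of 0.1 and 1.94 with voom, and that of EPCAM -0.00035 with voom.

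Leaving out 1 library turned 6 small changes that were not called. EPCAM ranged from -0.075 to 0.071 in PANC-1 AggreWell (the sign turned without 2D replicate 2 or, at -0.0026, AggreWell replicate 3), from -0.10 to 0.033 between the PANC-1 speeds (30 rpm replicate 2) and from -0.12 to 0.031 between HEK293T 30 rpm and AggreWell (AggreWell replicate 2 or, at 0.010, 30 rpm replicate 3). Its level difference in AggreWell ranged from -0.052 to 0.090, below 0 without HEK293T replicate 1, HEK293T replicate 3 (-0.0071) or PANC-1 replicate 3 (-0.0070). CDH1 between the HEK293T speeds ranged from -0.081 to 0.00082 and the CDH2 response to AggreWell from -0.077 to 0.013. The KRT7 to KRT19 ratio at PANC-1 1 rpm, 0.0042 against 2D, ranged from -0.17 to 0.14, with -0.17 both without 1 rpm replicate 1 and without 2D replicate 3. The KRT19 estimate in PANC-1 AggreWell ranged from 0.25 to 0.48.

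With the replicate number as a block, CDH2 between the PANC-1 speeds became called (-0.11, adjusted p = 0.0459), so 4 members were called there. Of 11585 genes, 4160 were higher and 3671 lower in that comparison. Every other count of members stayed as it was. Same-numbered libraries deviated together (correlation over 0.1) in 1 of 18 pairs in PANC-1 and 6 of 18 in HEK293T. Differently numbered libraries did so in 1 of 36 and 4 of 36 pairs. In HEK293T the median correlation was 0.07 for same-numbered and -0.04 for differently numbered pairs, so some shared deviation by number remains possible there. The main fits did not pair the libraries by number. Depth limits KRT7, KRT19, EPCAM and PANC-1 CDH1, which rest on 176 fragments or fewer per library. It also limits KRT81 at PANC-1 30 rpm (89 to 151 fragments) and ZEB1 in HEK293T 2D (134 to 162 fragments).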
